A study of Bos taurus with 2 samples.

Results

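The histone genes of 2 bovine single-nucleus libraries, 1 of blastoids and 1 of blastocysts, are described here by lineage and by sequencing depth of the nuclei. A gene was taken as a histone gene where its symbol started with H1-, H2A, H2B, H3-, H3C, H4- or H4C, which gave 48 of 35643 features. By their symbols, 28 are replication-dependent core histones (a C followed by a number), 10 are variant core histones and 10 are linker histones (H1). The 48 features carry 42 symbols, since H3C6, H4C6 and H2BC19 each label 3 features with different Ensembl identifiers. In both libraries together, 38 features had at least 10 unique molecular identifiers (UMIs, 1 per captured RNA molecule), 21 had at least 100, and 6 had none.

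Core histones H2A, H2B, H3 and H4 form the protein core around which DNA is wrapped, and linker histones bind where the DNA enters and leaves it. Replication-dependent genes sit in clusters, are transcribed mainly while DNA is copied, and their mRNAs end in a stem-loop in place of a poly(A) tail. Variant genes lie apart, make polyadenylated mRNA throughout the cell cycle and supply histones such as H3.3 (H3-3A and H3-3B) and H2A.Z (H2AZ1 and H2AZ2) outside replication. Both libraries used a 3′ kit, which primes on poly(A) RNA, so how much of the stem-loop mRNA was captured was not tested.

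A blastoid is a structure like a blastocyst that assembles from cultured stem cells. Here 8 bEPSCs (expanded potential stem cells), 8 bXEN cells (extraembryonic endoderm) and 16 bTSCs (trophoblast stem cells) were seeded in each microwell, after feeder cells had been depleted, in a medium with LIF, activin A and CHIR99021 plus a CEPT cocktail. The other library came from bovine embryos at day 8. Both are labelled wild type, and both were frozen before their nuclei were isolated. The labels do not give the number of blastoids or embryos in a library. With 1 library a group no test across replicates exists. Every interval below is an exact 95% interval that covers counting error only, and every difference compares these 2 libraries rather than the conditions.

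After filtering, 1914 blastoid barcodes with 7481006 UMIs and 827 blastocyst barcodes with 6849933 UMIs remained, and 1 barcode sequence occurred in both libraries. Depth differed sharply: 1628 blastoid barcodes and 140 blastocyst barcodes were shallow (under 4000 UMIs), while 286 and 687 were deep. Cytosolic ribosomal protein genes, 69 in all, held 15.6% of UMIs in shallow and 2.52% in deep blastoid barcodes, against 4.07% and 0.860% in the blastocyst. The blastoid gave a shallow ribosomal-rich cluster of 1620 barcodes, a trophectoderm-like cluster of 154 nuclei (9 trophectoderm markers raised, beside 5 of epiblast and 4 of hypoblast) and an unnamed deep cluster of 140. The blastocyst gave a hypoblast-like cluster of 405, an epiblast-like cluster of 73, a deep trophectoderm-like cluster of 232 and a shallow trophectoderm-like cluster of 117. The last is called shallow for its median of 1632 UMIs. Of its 117 barcodes 89 were under 4000 UMIs, so its sums also hold deep barcodes. GATA2, a trophectoderm transcription factor, was at 335 CPM (counts per 1000000 UMIs of the set) in blastoid trophectoderm-like nuclei, 480 in the deep and 111 in the shallow blastocyst cluster, and 7.14 in hypoblast-like nuclei. The hypoblast receptor gene PDGFRA was at 358 CPM in hypoblast-like nuclei and 13.1 in the deep trophectoderm-like cluster, but also at 163 in epiblast-like nuclei, where the pluripotency factor NANOG was at 115 CPM. NANOG was at 21.4 CPM in hypoblast-like nuclei, but other epiblast markers set the 2 clusters little apart. In epiblast-like against hypoblast-like nuclei PRDM14 was at 61.8 against 57.7, SOX2 at 39.9 against 36.3 and the epiblast marker sum at 1896 against 1651 CPM. The name of the shallow trophectoderm-like cluster is weak: PDGFRA was at 113, NANOG at 33.1 and SOX2 at 59.0 CPM there, against 13.1, 1.31 and 3.93 in the deep one. At a clustering resolution of 0.3 its 117 barcodes fell to ribosomal-rich (59), hypoblast-like (54) and trophectoderm-like (4) clusters, and at 1.0 to epiblast-like (58), ribosomal-rich (53), hypoblast-like (5) and trophectoderm-like (1) ones.

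Over whole libraries, all 3 histone classes were higher in the blastoid by CPM. Replication-dependent genes together counted 2347 blastoid and 864 blastocyst UMIs, or 314 CPM (301 to 327) against 126 CPM (118 to 135), a ratio of 2.49 (2.30 to 2.69). Variant genes had 10361 and 3024 UMIs, or 1385 CPM against 441 CPM, a ratio of 3.14 (3.01 to 3.27). Linker genes had 2524 and 558 UMIs, or 337 CPM against 81.5 CPM, a ratio of 4.14 (3.78 to 4.55). Variants thus held a like part of all histone UMIs in both whole libraries, 68.0% of each, while the linker part was 16.6% in the blastoid and 12.6% in the blastocyst. Within depth classes the variant parts differed. They were 64.3% (62.7% to 65.8%) in the blastoid against 68.6% (67.1% to 70.1%) in deep barcodes. In shallow ones they were 69.3% (68.4% to 70.1%) against 64.4% (60.6% to 68.1%). Of the 38 members with at least 10 UMIs, 19 were at least 2-fold higher in the blastoid and 6 at least 2-fold lower, where 24.2% and 20.8% of all 19218 features with that many UMIs were. The members' median log2 ratio was 1.06, against -0.08 over all features. Ribosomal protein UMIs moved the same way and further, from 1.00% of UMIs in the blastocyst to 8.09% in the blastoid. Marker sums of cell types differed between the libraries too: fibroblast markers were at 365 CPM in the blastoid against 40.7 CPM (0 of 16 at 0 in each) and neural markers at 823 against 119 CPM (1 of 10 at 0 in each). Trophectoderm markers were at 7486 against 1927 CPM, with 0 and 2 of 30 at 0. Hypoblast markers went the other way, at 4122 against 7063 CPM, as did epiblast markers, at 649 against 1530 CPM. The part of these marker shifts in the histone ratios was not tested. Counted per ribosomal protein UMI, the direction was the opposite, with ratios of 0.306 for replication-dependent, 0.386 for variant and 0.509 for linker genes. Ribosomal protein UMIs rose by more than any of the 3 classes, so a feature level by CPM is also lower by this measure. The same holds below wherever 2 sets differ in this way in ribosomal protein UMIs. By CPM, 19 of the 21 members with at least 100 UMIs were higher in the blastoid, and per ribosomal protein UMI only H1-10 and H3C6 (ENSBTAG00000063602) were.

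**Figure D1:**
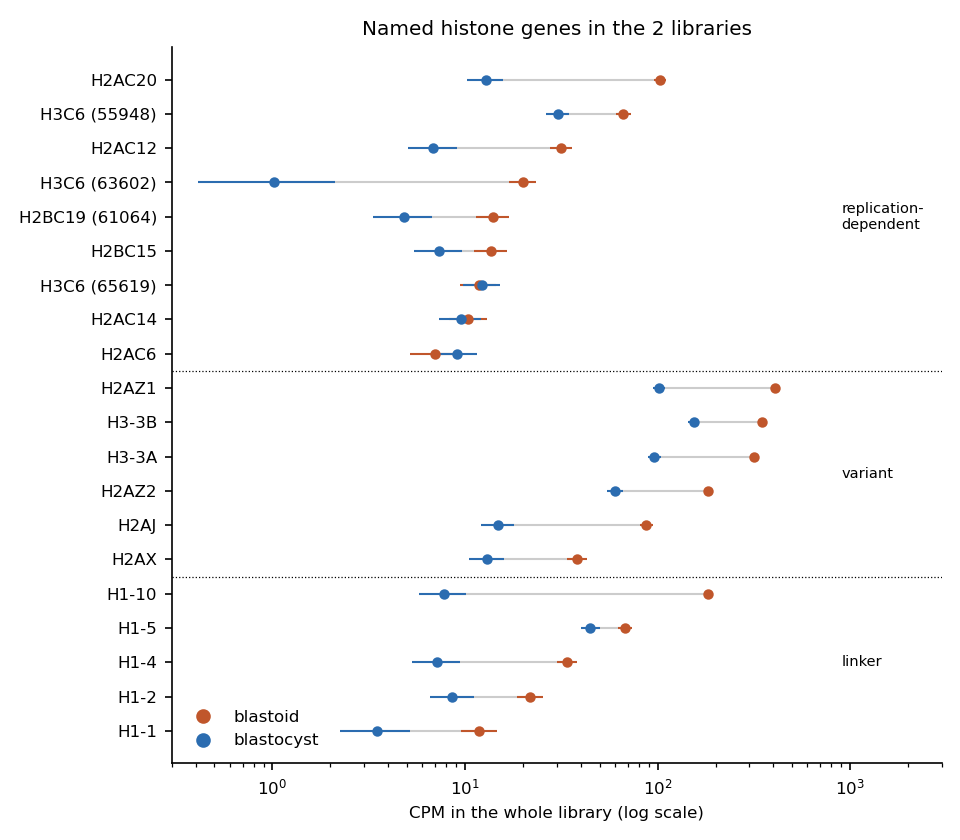
CPM of 20 of the 21 histone genes with at least 100 UMIs in the whole blastoid (orange) and blastocyst (blue) library on a log scale, with exact Poisson 95% intervals, grouped as linker, variant and replication-dependent; the number in brackets is the end of the Ensembl identifier where a symbol labels several features. H1-10 and H3C6 (ENSBTAG00000063602) have the widest gaps between the libraries, and H2AC6 and H3C6 (ENSBTAG00000065619) are the only ones with a lower value in the blastoid.

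By CPM linker histones showed the widest difference of the 3 classes, mainly in 1 gene, while per ribosomal protein UMI their ratio of 0.509 was the nearest to 1. H1-10, the gene of the divergent linker histone H1x, counted 1369 blastoid and 53 blastocyst UMIs, or 183 CPM (173 to 193) against 7.74 CPM (5.80 to 10.1). That is a 23.7-fold difference (18.0 to 31.7). The gap was present in both depth classes, with 329 against 44 UMIs in deep barcodes (11.4-fold, 8.31 to 16.0) and 1040 against 9 in shallow ones (10.4-fold, 5.48 to 22.9). Among linker UMIs, H1-10 made up 54.2% (52.3% to 56.2%) in the blastoid and 9.50% (7.2% to 12.2%) in the blastocyst. Its share was between 46.3% and 57.3% in the 3 blastoid clusters and between 5.05% and 13.4% in the 4 blastocyst clusters, so the cluster values of the libraries did not overlap.

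The other linker genes differed less. H1-4 had 254 against 49 UMIs (ratio 4.75, 3.48 to 6.58), and H1-1 had 89 against 24, a ratio of 3.4 (2.14 to 5.57). H1-2 had 163 against 59 UMIs (ratio 2.53, 1.87 to 3.47). H1-5, with 508 and 306 UMIs, was the linker gene with most UMIs in the blastocyst, at 44.7 CPM against 67.9 CPM in the blastoid, a ratio of 1.52 (1.32 to 1.76). These 4 are somatic subtypes whose genes lie in the histone clusters. Summed, they had 1014 and 438 UMIs, a ratio of 2.12 (1.89 to 2.38), which was 1.31 (1.13 to 1.52) between deep barcodes. H1-12, chosen here after its values were seen, had 49 and 11 UMIs. The germline genes were at or near the floor: H1-6, the testis subtype, had 15 and 21 UMIs, H1-8, the oocyte subtype, 1 and 0, and H1-9 none in either library.

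**Figure D2:**
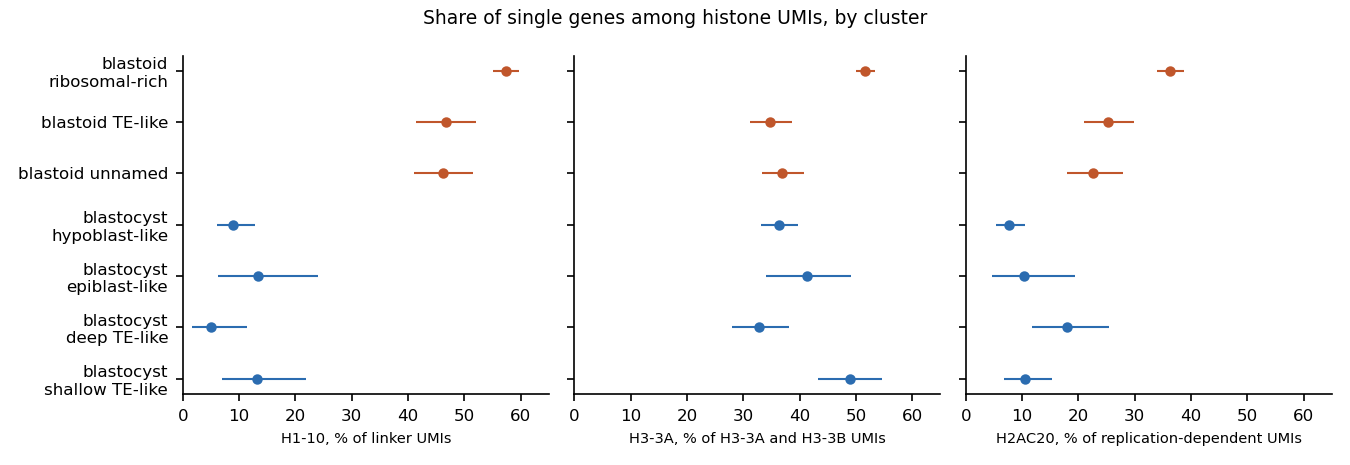
Share of H1-10 among linker UMIs, of H3-3A among H3-3A and H3-3B UMIs and of H2AC20 among replication-dependent UMIs in the 7 clusters (orange blastoid, blue blastocyst; TE, trophectoderm), with exact binomial 95% intervals. H1-10 is at 46.3% or more in each blastoid cluster and at 13.4% or less in each blastocyst cluster, while H3-3A is highest in the 2 shallow clusters of the libraries, at 51.7% and 48.9%.

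Replication-dependent genes split between the libraries. H2AC20, an H2A gene, led the blastoid with 770 UMIs against 88, or 103 CPM against 12.8 CPM, an 8.01-fold difference (6.42 to 10.1) that was 3.25-fold (2.46 to 4.33) between deep barcodes. Of all replication-dependent UMIs it made up 32.8% in the blastoid and 10.2% in the blastocyst, and without it the ratio of the whole class was 1.86 in place of 2.49. H2AC12, another H2A gene, had 236 against 47 UMIs (ratio 4.60, 3.35 to 6.43). These H2A genes stood above the class as a whole. The H2B genes with enough UMIs to name lay nearer to it, with 102 against 50 UMIs for H2BC15 (ratio 1.87, 1.32 to 2.68) and 104 against 33 for H2BC19 (ENSBTAG00000061064; ratio 2.89, 1.93 to 4.41).

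The H3C6 features behaved unlike each other. ENSBTAG00000055948 led the blastocyst with 208 UMIs against 496 in the blastoid, or 30.4 CPM against 66.3 CPM, a ratio of 2.18 (1.85 to 2.58). ENSBTAG00000063602 counted 149 blastoid and 7 blastocyst UMIs, a ratio of 19.5 (9.23 to 49.3), and was 9.16-fold higher (3.52 to 30.2) between deep barcodes. ENSBTAG00000065619 had 88 and 84 UMIs, a ratio of 0.958 (0.702 to 1.31) whose interval includes 1. Genes of a histone family can be nearly identical, and how reads shared between such copies were counted is not given in the sources used here. The 3 H3C6 features are therefore uncertain as separate genes, as are those of H2BC19 and H4C6.

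For some replication-dependent genes the values of the libraries lay close together. H2AC14 counted 78 blastoid and 65 blastocyst UMIs, a ratio of 1.10 (0.782 to 1.55). H2AC6 had 52 and 62 UMIs, a ratio of 0.768 (0.521 to 1.13). The intervals of both include 1. Below 100 UMIs, the 5 replication-dependent members at least 2-fold lower in the blastoid, named after their values were seen, were H2AC25 with 13 against 38 UMIs, H4C14 with 1 against 12, H2BC11 with 3 against 9, H2BC3 with 3 against 7, and H2AC5P, a pseudogene in RefSeq, with 10 against 20. These are 5 of 23 tested, near the 20.8% of all features. H4 genes were scarce altogether: H4C3 had most, with 61 and 20 UMIs, and 2 of the 3 H4C6 features, like H3C13, had 0 UMIs in both. A count of 0, taken to allow up to 3 UMIs, allows up to 0.401 CPM in the blastoid and 0.438 CPM in the blastocyst. RefSeq's table of assembly ARS-UCD2.0 lists 94 histone symbols of these forms, all 42 symbols found here among them, and the other 52 were not analysed here. Of the 42 symbols, 19 lie in that table's largest histone gene cluster and 6 in the second, H2AC20 and H2BC19 among the latter.

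Variant core histones carried most of the histone UMIs, nearly all of them from 6 genes. H2AZ1, which encodes H2A.Z.1 of promoter nucleosomes, counted 3052 blastoid and 696 blastocyst UMIs, or 408 CPM against 102 CPM, a ratio of 4.02 (3.70 to 4.37). Its paralogue H2AZ2 had 1372 and 413 UMIs, a ratio of 3.04 (2.72 to 3.4). H3-3A had 2375 and 659 UMIs, a ratio of 3.30 (3.03 to 3.60). H3-3B encodes the same H3.3 protein as H3-3A. With 2622 and 1053 UMIs, or 350.5 CPM against 154 CPM, it was the histone gene with most UMIs in the blastocyst, and its ratio of 2.28 (2.12 to 2.45) was the lowest of the 6. H2AX, which encodes the H2A form phosphorylated at DNA breaks, had 286 and 89 UMIs, a ratio of 2.94 (2.31 to 3.78). H2AJ had 653 and 102 UMIs, a ratio of 5.86 (4.75 to 7.30), and kept a ratio of 2.90 (2.23 to 3.79) between deep barcodes. Between deep barcodes the other 5 variants lay closer together, at ratios between 1.29 for H3-3A and 1.61 for H2AZ1. The remaining variants were almost absent: H2BL1 and H3-3D had 0 UMIs, H2BK1 had 1 in each library, and H3-4 had 11 in the blastocyst and 0 in the blastoid. All 11 came from 1 barcode of 5299 UMIs.

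Histone levels also differed between the depth classes of each library. Within the blastoid, shallow barcodes had 529 CPM (504 to 555) of replication-dependent histones and deep ones 155 CPM (143 to 167), a ratio of 3.42 (3.12 to 3.75). The ratio was 4.3 (4.11 to 4.50) for variants and 3.43 (3.15 to 3.75) for linkers. At least 10 UMIs were held by 32 members, of which 27 were at least 2-fold higher in shallow barcodes and 0 at least 2-fold lower. Of all features, 18.4% were that much higher and 44.5% that much lower, and the median log2 ratio was 1.92 for the members and -0.77 for all features. The 5 members between these limits were H1-5, H2AC6, H2AC25, H3C6 (ENSBTAG00000055948) and H2BC19 (ENSBTAG00000069228). Of these H2AC6 was lower in shallow barcodes by CPM, with 18 UMIs against 34 in deep ones.

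The blastocyst showed the same order between its depth classes. Shallow barcodes had 616 CPM (528 to 713) of replication-dependent histones and deep ones 105 CPM (97.0 to 113), a ratio of 5.88 (4.96 to 6.95). For variants the ratio was 3.73 (3.36 to 4.14) and for linkers 2.65 (1.98 to 3.48). At least 2-fold higher were 26 of 32 members, against 17.5% of all features, and 0 were at least 2-fold lower, against 5.22%. The median log2 ratio was 2.02 for the members. Per ribosomal protein UMI the ratio of shallow to deep was 0.552, 0.693 and 0.554 for the 3 classes in the blastoid, and 1.24, 0.788 and 0.559 in the blastocyst, so that 5 of these 6 values lay below 1. Without the 8 blastocyst barcodes with at least 8 replication-dependent UMIs and at least 4000 CPM of them, 7 of them shallow, the value of 1.24 was 0.690 (0.548 to 0.859). The ratio of 5.88 by CPM was then 3.29 (2.61 to 4.09). These barcodes were chosen for these UMIs, so leaving them out, here and below, can only lower the level of the set that holds them. Mitochondrial genes also held more of the shallow UMIs, 2.03% against 0.481% in the blastoid and 2.25% against 0.791% in the blastocyst. Summed fibroblast markers were at 656 CPM in shallow and 150 CPM in deep blastoid barcodes, with 0 of 16 markers at 0 in either. Summed trophectoderm markers were at 13047 CPM and 3374 CPM, with 1 of 30 at 0 in each. In the blastocyst the fibroblast sums were 233 and 32.3 CPM, with 7 and 1 of 16 at 0, and the trophectoderm sums 5808 and 1757 CPM, with 2 and 3 of 30 at 0. Hypoblast sums were closer, at 4329 and 3969 CPM in the blastoid and 6232 and 7099 CPM in the blastocyst. Epiblast sums were at 547 and 725 CPM in the blastoid and 1558 and 1528 CPM in the blastocyst. The part of these shifts in the histone level was not tested.

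The comparison of the libraries differed between depth classes. Between deep barcodes the blastoid was higher by 1.48 (1.33 to 1.65) for replication-dependent, 1.46 (1.38 to 1.54) for variant and 2.18 (1.94 to 2.44) for linker genes. Per ribosomal protein UMI the same ratios were 0.504 (0.453 to 0.562), 0.497 (0.470 to 0.525) and 0.743 (0.662 to 0.835), so that each class was lower in the blastoid, and 3 of the 21 members with at least 100 UMIs were higher there in place of 19 by CPM. Ribosomal protein UMIs were 2.52% and 0.860% in these barcodes, so a feature level by CPM is lower by this measure too. Among these barcodes fibroblast markers were at 150 CPM in the blastoid and 32.3 CPM in the blastocyst, and neural markers at 932 and 117 CPM. Hypoblast markers went the other way, at 3969 and 7099 CPM, as did epiblast markers, at 725 and 1528 CPM. The part of these marker shifts was not tested either. Of 33 members, 5 were at least 2-fold higher and 5 lower, where all features gave 21.9% and 15.3%. The median log2 ratio was 0.37, beside 0.04 for all features. The 5 higher ones were H1-10, H2AC20, H2AJ, H3C6 (ENSBTAG00000063602) and H2BC19 (ENSBTAG00000069228), and the 5 lower ones H2AC25, H2AC5P, H4C14, H3-4 and H1-6. Between shallow barcodes, replication-dependent genes had a ratio of 0.859 (0.735 to 1.01), variants 1.68 (1.52 to 1.85) and linkers 2.82 (2.17 to 3.73). Without the 7 shallow blastocyst barcodes that passed both limits the first ratio was 1.60 (1.30 to 1.99). They were chosen in view of these UMIs and left out of the blastocyst alone, so the choice fixes the direction of that shift. Per ribosomal protein UMI the 3 ratios were 0.224 (0.192 to 0.263), 0.437 (0.396 to 0.483) and 0.736 (0.567 to 0.973). Of 32 members 8 were at least 2-fold higher and 9 lower in the shallow blastoid barcodes, against 12.1% and 35.9% of all features, with median log2 ratios of 0.17 for the members and -0.39 for all. By CPM replication-dependent genes were thus above the blastocyst over whole libraries and between deep barcodes. Between shallow ones the interval of 0.859 included 1, and the ratio with barcodes left out does not settle a direction.

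**Figure D3:**
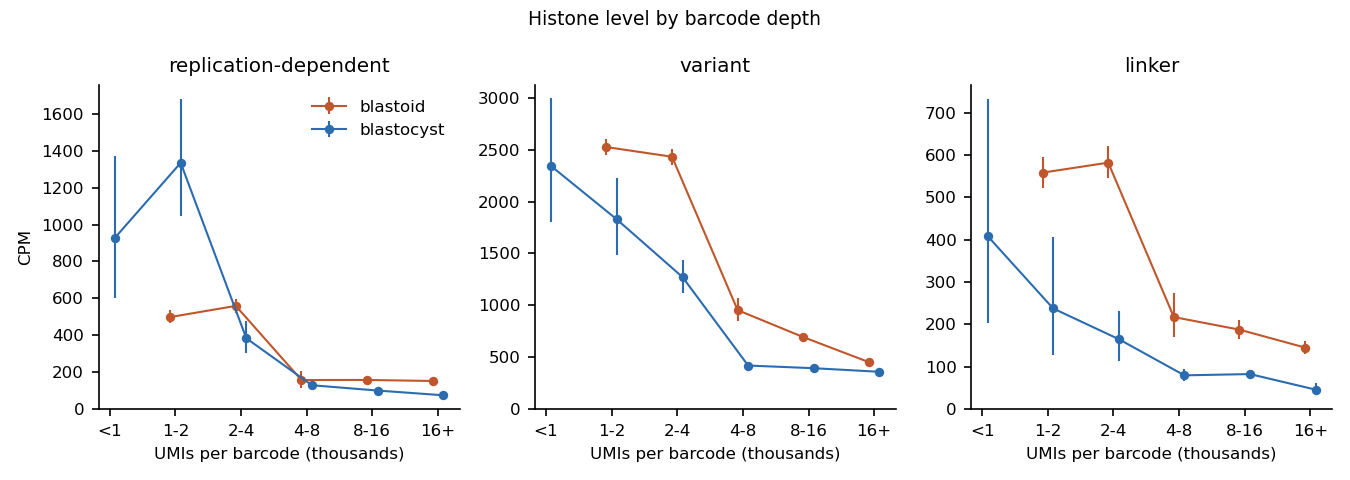
CPM of the 3 histone classes by UMIs per barcode (bins of at least 20 barcodes) in the blastoid (orange) and blastocyst (blue), with exact Poisson 95% intervals. Replication-dependent histones of the blastoid are near 155 CPM in each bin from 4000 UMIs upward and at 498 and 559 CPM in the 2 shallow bins.

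Finer bins showed a step in the blastoid rather than a slope for replication-dependent genes. They were at 498 CPM (464 to 534) from 1000 to 2000 UMIs and 559 CPM (523 to 597) from 2000 to 4000, then at 157, 158 and 152 CPM in the 3 deeper bins. Variants of the blastoid were lower in each deeper bin, from 954 CPM (849 to 1068) in the bin from 4000 UMIs to 694 CPM and then 453 CPM (426 to 480) from 16000 UMIs. Ribosomal protein UMIs were lower there too, from 4.52% to 3.05% and 1.92%, and their part in it was not tested. Below 1000 UMIs the blastoid had only 4 barcodes. In the blastocyst, replication-dependent genes went from 1334 CPM (1046 to 1678) between 1000 and 2000 UMIs to 384, 129, 100.5 and 74.9 CPM in the deeper bins. Below 1000 UMIs it held 34 barcodes at 929 CPM (601 to 1371). Of the 73 UMIs behind the 1334 CPM, 52 came from 5 of 40 barcodes. Without the barcodes that passed both limits the 4 shallower bins were at 609, 435, 270 and 115 CPM, and the interval from 1000 to 2000 UMIs (269 to 665) overlapped that of the next bin (204 to 352).

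Among the deep clusters of the blastocyst, trophectoderm-like nuclei had the lowest histone level. Replication-dependent genes were at 129 CPM (117 to 142) in hypoblast-like, 99.1 CPM (78.2 to 124) in epiblast-like and 58.5 CPM (49.0 to 69.3) in deep trophectoderm-like nuclei. Hypoblast-like nuclei therefore stood 2.21-fold (1.81 to 2.70) and epiblast-like nuclei 1.69-fold (1.26 to 2.26) above the deep trophectoderm-like cluster. Variants had ratios of 1.68 (1.52 to 1.85) and 1.51 (1.31 to 1.73), and linkers of 2.07 (1.65 to 2.63) and 1.99 (1.44 to 2.75). These clusters were close in ribosomal protein UMIs, at 0.795%, 0.675% and 0.748%, and per ribosomal protein UMI the hypoblast-like ratios were 2.08, 1.58 and 1.95 and the epiblast-like ratios 1.88, 1.67 and 2.21. Median depths were 7634, 10175 and 8735 UMIs. The median S phase gene also stood above the deep trophectoderm-like cluster by more than the median feature. Of 42 S phase genes 9 were at least 2-fold higher and 1 lower in hypoblast-like nuclei, near the 19.0% and below the 13.8% of all features, with a median log2 ratio of 0.61 beside 0.22. In epiblast-like nuclei 8 of 41 were higher and 1 lower, near the 18.3% and below the 14.5% of all features, with a median of 0.50 beside 0.07. The part of this shift in the histone ratios was not tested.

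By gene, 12 of 27 members were at least 2-fold higher in hypoblast-like than in deep trophectoderm-like nuclei and 0 lower, against 19.0% and 13.8% of all features, and the median log2 ratio was 0.93, beside 0.22 for all. H2AC14 had 28 against 3 UMIs (ratio 6.36, 1.96 to 32.7), and H2AC6 36 against 8, a ratio of 3.07 (1.40 to 7.64). H2BC19 (ENSBTAG00000061064) had 27 UMIs in hypoblast-like and 1 in deep trophectoderm-like nuclei, a ratio of 18.4 (3.03 to 753). H2AC20, by contrast, did not differ beyond counting error, with 33 and 24 UMIs (ratio 0.937, 0.538 to 1.66), and neither did H2AJ, with 47 and 28 (ratio 1.14, 0.703 to 1.90). In epiblast-like nuclei 4 of 19 members were at least 2-fold higher than in the deep trophectoderm-like cluster, against 18.3% of all features, and 0 were lower, against 14.5%. They were H1-10, H1-1, H2AC12 and H2AC25. Hypoblast-like and epiblast-like nuclei were close to each other, with ratios of 1.30 (1.02 to 1.68) for replication-dependent, 1.11 (0.984 to 1.26) for variant and 1.04 (0.795 to 1.37) for linker genes. Without 1 hypoblast-like barcode of 14 replication-dependent UMIs the first was 1.26 (0.987 to 1.63). Of 25 members, 2 were at least 2-fold higher and 2 lower there, against 4.70% and 7.51%, namely H2AC6 and H2BC19 (ENSBTAG00000061064) above and H2AC25 and H1-1 below.

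In the blastoid, the deep clusters differed by less than counting error in replication-dependent histones and by more in the others. The trophectoderm-like and the unnamed cluster were both at 156 CPM of replication-dependent histones, with a ratio of 1.00 (0.857 to 1.17) of the unnamed to the trophectoderm-like one. Variants were 1.26-fold (1.16 to 1.36) and linkers 1.37-fold (1.18 to 1.60) higher in the unnamed cluster. H2AZ2 had 190 against 143 UMIs (ratio 1.69, 1.36 to 2.12), and H2AC12 had 29 against 16 (ratio 2.31, 1.21 to 4.56). Of 24 members, 3 were at least 2-fold higher and 1 lower, against 21.6% and 17.5% of all features, namely H2AC12, H1-12 and H2BC19 (ENSBTAG00000061064) above and H2AC14 below. With markers counted from 20 UMIs the unnamed cluster had 10 hypoblast and 4 neural markers raised and would be called hypoblast-like. Its leading genes included DCC, LMX1A and NLGN1, and neural markers were at 1861 CPM there and at 200.5 CPM in the trophectoderm-like cluster, with 1 of 10 at 0 in each. The ribosomal-rich cluster held nearly all shallow barcodes and had 529 CPM of replication-dependent, 2484 CPM of variant and 570 CPM of linker histones.

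**Figure D4:**
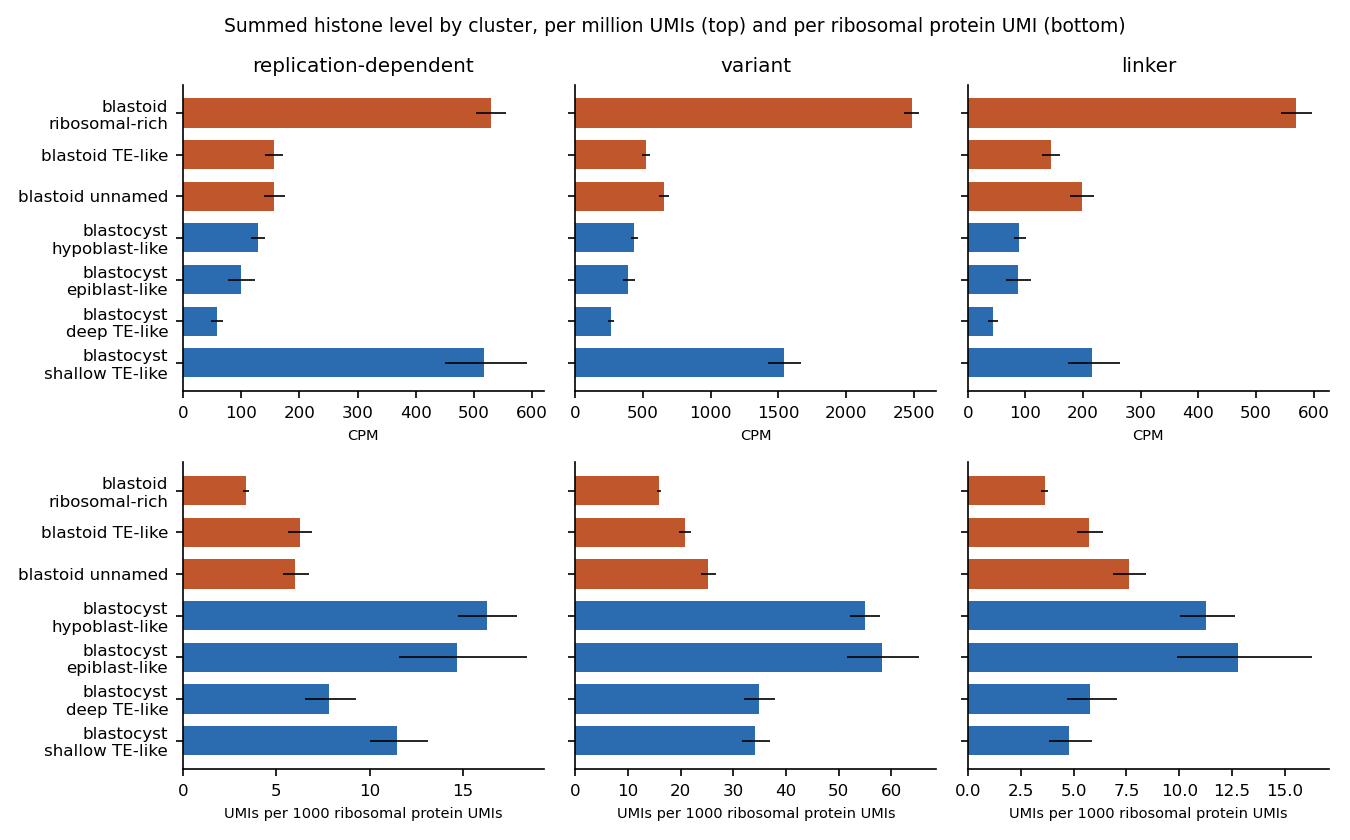
Summed level of replication-dependent, variant and linker histones in the 3 blastoid (orange) and 4 blastocyst (blue) clusters, as CPM (top) and per 1000 ribosomal protein UMIs (bottom), with exact Poisson 95% intervals; TE, trophectoderm. By CPM the 2 shallow clusters are highest in replication-dependent histones, at 529 and 517 (295 for the latter without 7 barcodes), and per 1000 ribosomal protein UMIs the hypoblast-like cluster is, at 16.2.

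Trophectoderm-like nuclei were the 1 class named in both libraries with markers counted from 100 UMIs. The ribosomal-rich blastoid cluster had 12 trophectoderm, 9 hypoblast and 3 epiblast markers raised, and only the 5% ribosomal limit kept it from this name. The shallow blastocyst cluster, at 4.51%, was under that limit. The blastoid class was a deep cluster of 154 nuclei (median 14620 UMIs), and the blastocyst class joined the deep cluster of 232 (median 8735 UMIs) and the shallow cluster of 117 (median 1632 UMIs). Against both blastocyst clusters together, the blastoid had ratios of 1.20 (1.03 to 1.39) for replication-dependent, 1.13 (1.04 to 1.22) for variant and 2.05 (1.71 to 2.46) for linker genes. The first pair turned with the measure: per ribosomal protein UMI they were 0.641 (0.553 to 0.743) and 0.603 (0.557 to 0.653), and with each nucleus thinned to 2000 UMIs 0.775 and 0.990. Without the 7 barcodes of this class that passed both limits on replication-dependent UMIs the ratio of those genes was 1.65 (1.40 to 1.94) by CPM. Of 30 members 6 were at least 2-fold higher and 6 lower, near the 18.1% and 15.4% of all features, and the median log2 ratio was -0.01, beside 0.02. Against the deep blastocyst cluster alone the ratios were 2.66 (2.18 to 3.27), 1.99 (1.81 to 2.20) and 3.32 (2.65 to 4.19), with 13 of 22 members at least 2-fold higher, against 20.6% of all features, and 0 lower, against 14.0%, and medians of 1.21 and 0.09. Between these 2 clusters neural markers were at 200.5 CPM in the blastoid against 24.0 CPM, and fibroblast markers at 111 against 34.9 CPM. Epiblast markers went the other way, at 667 against 1240 CPM, and hypoblast markers were close, at 5690 against 5711 CPM. The part of these shifts was not tested. Ribosomal protein genes held 2.49% of UMIs in the blastoid cluster and 0.748% in the deep blastocyst cluster. Per ribosomal protein UMI those ratios were 0.798 (0.654 to 0.980), 0.597 (0.541 to 0.660) and 0.994 (0.793 to 1.26).

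Single genes were ordered in different ways over these 3 clusters. H1-10 had 162 UMIs in the blastoid trophectoderm-like cluster, 5 in the deep and 12 in the shallow blastocyst cluster, or 67.0, 2.18 and 28.3 CPM. Against the deep cluster its ratio was 30.7 (12.9 to 95.7), and against both it was 10.7 (6.47 to 18.8). H2AC20 had 95, 24 and 23 UMIs, or 39.3, 10.5 and 54.3 CPM, so that the shallow blastocyst cluster was above the blastoid, though their intervals overlapped. H2AJ had 100, 28 and 21 UMIs, or 41.3, 12.2 and 49.6 CPM, in the same order and with the same overlap. H3C6 (ENSBTAG00000065619) was higher in the deep blastocyst cluster by CPM, at 7.86 against 6.20, with 18 and 15 UMIs and overlapping intervals.

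The shallow trophectoderm-like cluster of the blastocyst stood far above the deep one. Its ratios were 8.84 (7.1 to 11.0) for replication-dependent, 5.91 (5.29 to 6.62) for variant and 4.97 (3.70 to 6.67) for linker genes, and 23 of 23 members were at least 2-fold higher, against 21.4% of all features, and 0 lower, against 14.4%. Mitochondrial genes held 3.21% of UMIs against 0.538% in the deep cluster. Fibroblast markers were at 194 against 34.9 CPM and trophectoderm markers at 8218 against 3396 CPM, while hypoblast markers were at 5481 against 5711 CPM. The part of these shifts was not tested. Ribosomal protein UMIs were 4.51% against 0.748%, and per ribosomal protein UMI the ratios were 1.47 (1.18 to 1.83), 0.981 (0.877 to 1.10) and 0.825 (0.613 to 1.11). Without the 7 of its 117 barcodes that passed both limits on replication-dependent UMIs, the 8.84 was 5.05 (3.91 to 6.50) and the 1.47 was 0.827 (0.641 to 1.06). A few other barcodes weighed on this cluster. One barcode of 80592 UMIs, where the next deepest of the library had 34356, held 19.0% of its UMIs, and without it the levels were 598, 1648 and 262 CPM in place of 517, 1542 and 215. Another, of 8652 UMIs, held 61 of the 696 H2AZ1 UMIs of the whole library. Without that one H2AZ1 was at 354 CPM in the cluster in place of 491.

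A group of 8 blastocyst barcodes, chosen for their replication-dependent UMIs, held 13.0% of those of the library. With the limits given above, set after the values were seen, of at least 8 replication-dependent UMIs and at least 4000 CPM of them, 8 of 827 blastocyst barcodes and 0 of 1914 blastoid barcodes qualified. Of 9 blastoid barcodes with at least 8 such UMIs, the highest were just under the CPM limit, at 3840 and 3617 CPM, so the counts of 8 and 0 depend on where that limit lies. The 8 held 112 of the 864 replication-dependent UMIs in 0.216% of all UMIs, an excess that follows from how they were chosen and is given as a description, and 7 of them lay in the shallow trophectoderm-like cluster. Each expressed several genes, from 4 to 12, and the highest counts were 27 UMIs in a barcode of 5299 and 24 in one of 2419. The 27-UMI barcode also held the 11 UMIs of H3-4. H2AC14 had 27 of its 65 blastocyst UMIs there, H4C3 8 of 20 and H2AC10 6 of 15, while H1-10 had none of its 53. S phase genes were at 3035 CPM in the 8 barcodes and 3108 CPM in the rest of the library. Without the 8, replication-dependent genes were at 110.0 CPM in the blastocyst in place of 126, and at 295 CPM in place of 517 in the shallow trophectoderm-like cluster.

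**Figure D5:**
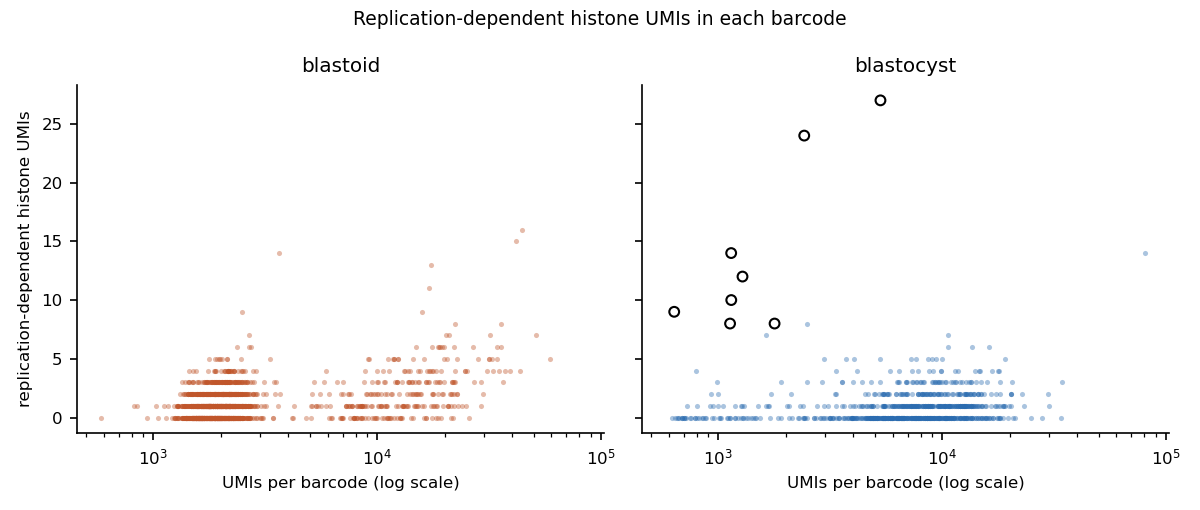
Replication-dependent histone UMIs against all UMIs (log scale) of each kept barcode in the blastoid (left) and the blastocyst (right); open circles mark the 8 blastocyst barcodes with at least 8 such UMIs and at least 4000 CPM. They reach 27 UMIs, while the blastoid barcodes reach 16, at 44455 UMIs.

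Pairs of genes that encode the same or nearly the same protein differed in balance between depth classes, with separate intervals in both libraries for the H3.3 pair alone. H3-3A made up 51.7% (50.0% to 53.3%) of the H3.3 UMIs in shallow blastoid barcodes and 35.8% (33.2% to 38.5%) in deep ones. In the blastocyst the shares were 48.2% (41.5% to 55.0%) and 37.0% (34.6% to 39.5%). The depth classes thus separated in each library, while the libraries overlapped within each depth class. Among clusters, H3-3A was at 34.8% in blastoid and 32.9% in deep blastocyst trophectoderm-like nuclei, 36.4% in hypoblast-like and 41.4% in epiblast-like nuclei. H2AZ1 made up 70.2% (68.6% to 71.7%) and 64.6% (61.4% to 67.7%) of H2A.Z UMIs in shallow and deep blastoid barcodes, and 70.8% (63.3% to 77.5%) and 61.3% (58.1% to 64.4%) in those of the blastocyst, where the intervals overlapped. In hypoblast-like nuclei the share of H2AZ1 was 57.6% (53.2% to 61.9%). UMI shares compare captured molecules and are not scaled by transcript length.

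Detection per nucleus was compared after thinning each to 2000 UMIs, which left out 938 blastoid and 74 blastocyst barcodes. In trophectoderm-like nuclei, a replication-dependent UMI was found in 22.7% (16.2% to 30.2%) of blastoid nuclei and 9.61% (6.12% to 14.2%) of those in the deep blastocyst cluster, with 78.6% and 39.2% before thinning. Median depths of these clusters were 14620 and 8735 before thinning. In the shallow blastocyst cluster the share was 48.1% (34.3% to 62.2%) of 54 thinned barcodes. With both blastocyst clusters joined it was 17.0% (12.8% to 21.9%), whose interval overlaps that of the blastoid. In hypoblast-like nuclei a replication-dependent UMI was found in 23.4% (19.3% to 27.9%) and in epiblast-like nuclei in 13.7% (6.77% to 23.8%), with 54.6% and 63.0% before thinning, where the median depths were 7634 and 10175. The epiblast-like interval includes the values of the hypoblast-like and the deep trophectoderm-like cluster, but not that of the shallow one. Among ribosomal-rich blastoid barcodes the share was 64.2% (60.5% to 67.8%), and 61.7% before thinning. No cell type of the embryo is known to lack histone mRNA, so the share that free RNA alone would give was not measured.

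Nuclei with a higher S phase score differed from those with a lower one by no more than counting error in replication-dependent histones. Whether the score separates nuclei by cycle state was not tested, so the ratios do not settle whether histone levels follow the cycle. Each cluster was split at its median CPM of 42 S phase genes into an upper and a lower range, which are ranges of a score and not cell types. In the ribosomal-rich blastoid cluster this limit was 2374 CPM at a median depth of 1926 UMIs. In the shallow blastocyst cluster it was 3077 CPM at 1632 UMIs. At such depths a barcode holds few S phase UMIs, so counting error can move it across the limit. In the ribosomal-rich blastoid cluster the ratio of upper to lower range was 1.06 (0.959 to 1.16), with 245 of 1620 barcodes within 10% of the limit. It was 1.06 (0.864 to 1.31) in blastoid trophectoderm-like, 0.990 (0.782 to 1.25) in unnamed, 0.971 (0.801 to 1.18) in hypoblast-like and 1.10 (0.684 to 1.77) in epiblast-like nuclei. In the deep and shallow blastocyst trophectoderm-like clusters it was 1.28 (0.900 to 1.84) and 1.24 (0.945 to 1.64). All 7 intervals include 1, and the widest reach from 0.684 to 1.84. Within 10% of the limit lay 45 of 154 blastoid trophectoderm-like, 38 of 140 unnamed, 101 of 405 hypoblast-like and 19 of 73 epiblast-like nuclei. In the deep and shallow blastocyst trophectoderm-like clusters 63 of 232 and 17 of 117 did. The shallow cluster's ratio turned to 0.951 (0.716 to 1.26) without its deepest barcode, which held 80592 UMIs and lay in the lower range. Variant histones were at 1.60 (1.37 to 1.87) in the shallow trophectoderm-like cluster and at 1.26 (1.00 to 1.59) in the epiblast-like cluster. Linkers were at 2.42 (1.55 to 3.83) in the former, where ribosomal protein UMIs were 3.2% in the upper and 5.45% in the lower range, and at 0.758 (0.613 to 0.935) in the unnamed blastoid cluster. Without the same barcode, an alternative chosen after seeing the data, variants were at 1.51 (1.27 to 1.80) and linkers at 1.67 (1.07 to 2.66) in the shallow cluster, with ribosomal protein UMIs at 3.2% and 4.55%. Split by 49 G2 and M phase genes, replication-dependent histones again had intervals that include 1 in all 7 clusters, with the highest ratio in the deep blastocyst trophectoderm-like cluster, at 1.40 (0.969 to 2.05). By that split linkers were 1.46-fold (1.18 to 1.81) higher in the upper range of the unnamed blastoid cluster and 1.56-fold (1.00 to 2.46) in that of the deep trophectoderm-like cluster. In the shallow trophectoderm-like cluster they were 1.76-fold (1.14 to 2.72) higher, or 1.28-fold (0.825 to 1.97) without its deepest barcode. Variants were 2.03-fold (1.74 to 2.38) higher in the upper range of the shallow trophectoderm-like cluster, or 2.00-fold (1.69 to 2.38) without that barcode. By the same split and without it, replication-dependent genes of that cluster were at 0.820 (0.611 to 1.10) in place of 1.04 (0.780 to 1.38). The part of ribosomal protein UMIs and depth in these ratios was not tested. Whether the G2 and M phase score separates nuclei by cycle state was not tested either.

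Over whole libraries and between deep barcodes, few genes that make and handle histone mRNA or protein were past 2-fold. Of 27 genes for transcription, 3′ processing and decay of histone mRNA, 4 (NCBP2, SNRPB, SNRPD3 and CSTF2T) were at least 2-fold higher over the whole blastoid library and 1 (LSM11) lower, against the same 24.2% and 20.8% of all features, and between deep barcodes 0 were either way. SLBP, whose protein binds the stem-loop, was at 46.3 CPM in the blastoid and 60.3 CPM in the blastocyst, and had 129 and 378 UMIs in their deep barcodes, a ratio of 0.521 (0.423 to 0.638). NPAT, the activator of replication-dependent genes, was at 76.9 and 81.8 CPM, a ratio of 0.940 (0.835 to 1.06). These 2 genes were picked after their values were seen. Of 35 histone chaperone and exchange genes, 3 were at least 2-fold higher, namely SET, NPM1 and ANP32E, a chaperone that removes H2A.Z, and 3 were lower, namely ATRX, which with DAXX deposits H3.3, UBN2 and INO80. ATRX had 433 CPM in the blastoid and 930 CPM in the blastocyst. Between deep barcodes only UBN2 of the 35 was past 2-fold. Between shallow barcodes more were: 3 of 26 processing genes were higher and 9 lower in the blastoid, and 4 of 35 chaperone genes were higher and 14 lower, where 12.1% and 35.9% of all features were. Over whole libraries, 6 of 42 S phase genes were higher and 1, the ligase gene LIG1, was lower, and of 49 G2 and M phase genes 9 were higher and 0 lower, beside the 24.2% and 20.8% of all features. Between deep barcodes 3 S phase genes (UHRF1, WDR76 and E2F8) were higher and LIG1 again lower, and 2 G2 and M phase genes (UBE2C and LBR) were higher and 0 lower, against 21.9% and 15.3% of all features. Between shallow barcodes these counts were 1 and 11 for S phase and 8 and 5 for G2 and M phase genes. The median log2 ratio over whole libraries was -0.38 for the processing genes, 0.04 for the chaperone genes, -0.01 for S phase and 0.26 for G2 and M phase genes, beside -0.08 for all features.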

How the data were processed

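The deposited matrices hold UMI counts per gene and barcode, made by the authors; per the file headers Cell Ranger 7.2.0 was used, while the submitters' processing notes name Cell Ranger 7.1.0 and Seurat 4.3.0; genome build and annotation are not given in the sources used here. Barcodes with at least 500 genes and under 10% mitochondrial UMIs were kept, and the top Scrublet scores (0.8% per 1000 barcodes; scanpy 1.11.5), 30 blastoid and 6 blastocyst barcodes, were removed. Each library was clustered alone (leidenalg 0.10.2, resolution 0.5) on 2000 variable genes without markers and histones. A cluster was named from at least 3 markers (at least 100 UMIs, 1.5 times the CPM elsewhere), at least 2 more than any other class had. That margin was set after marker counts were seen. Clusters over 5% ribosomal protein UMIs were called ribosomal-rich. UMIs were summed per set. CPM carry exact Poisson, shares exact binomial (Clopper-Pearson) and ratios exact conditional 95% intervals. For counts of 2-fold differences, the lower sum was raised to 3 UMIs. Members with at least 100 UMIs are named, others where said. Of the former, 1 is not reported here. Members and gene lists were chosen with earlier results of these data known. Ratios were tested on simulated data. In all, 13 comparisons of sums were made.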

Additional observations from a re-analysis of the deposited data

How the results depend on the processing

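Ratios are blastoid over blastocyst, or shallow over deep, and the cause of each shift was not tested. Over whole libraries, the replication-dependent ratio of 2.49 was 2.95 with totals scaled so that all features had a median ratio of 1 (a shift of 0.844), 1.86 without H2AC20, 1.48 with at least 4000 UMIs, 2.96 thinned to 2000 UMIs, and, chosen after seeing the data, 2.85 without the 8 barcodes with at least 8 of these UMIs and 4000 CPM of them and 0.306 per ribosomal protein UMI. The variant ratio of 3.14 was 3.72 with that scaling, 3.39 without ribosomal and mitochondrial UMIs in the totals, 2.93 with at least 1000 genes, 2.87 without H2AZ1, 1.46 with at least 4000 UMIs, 3.89 thinned and 0.386 per ribosomal protein UMI. In trophectoderm-like nuclei, the ratios of 1.20 and 1.13 for replication-dependent and variant genes were 2.50 and 1.99 at resolution 0.3, 2.66 and 2.00 at resolution 1.0, 2.66 and 1.99 without the shallow blastocyst cluster (chosen after seeing the data), 0.775 and 0.990 thinned, and 0.641 and 0.603 per ribosomal protein UMI. The first was 1.65 without the 8 barcodes. A naming rule asking for 2 times the markers of any other class named no blastoid cluster, so it gave no value.

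Between depth classes of the blastoid, the replication-dependent ratio of 3.42 and the variant ratio of 4.3 were 4.03 and 5.06 without ribosomal and mitochondrial UMIs, 2.89 and 3.92 without the member with most UMIs, and 0.552 and 0.693 per ribosomal protein UMI. In the blastocyst, 5.88 and 3.73 became 9.18 and 4.25 with the limit at 3000 UMIs, 2.82 and 1.97 at 6000, and 1.24 and 0.788 per ribosomal protein UMI. The first was 7.31 with at least 200 genes and 3.29 without the 8 barcodes, and the second 4.24 without the member with most UMIs. With at least 100 UMIs, 0 in place of 6 members were at least 2-fold lower in the blastoid, since all 6 have fewer. Of the ratios of single members, 133 moved by less than their interval and 35 by more under the alternatives other than ribosomal protein UMIs, and 0 of those called turned; per ribosomal protein UMI, 2 of 21 were higher in the blastoid in place of 19. No paired analysis was possible because each group has 1 library, and leaving one out leaves no group. Depth limits what can be said of genes under 100 UMIs.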

Other observations

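The macroH2A genes and CENPA, the centromeric H3, lie outside the symbol rule. MACROH2A2 counted 645 blastoid and 45 blastocyst UMIs, a ratio of 13.1 (9.69 to 18.2), and 369 against 45 between deep barcodes (12.5, 9.17 to 17.5). In trophectoderm-like nuclei it had 86 and 28 UMIs, a ratio of 3.45 (2.23 to 5.48). MACROH2A1 had 860 and 465 UMIs over whole libraries, a ratio of 1.69 (1.51 to 1.90), but 274 and 297 in trophectoderm-like nuclei, a ratio of 1.03 (0.875 to 1.22). Within the blastocyst MACROH2A1 was highest in the deep trophectoderm-like cluster, at 122 CPM against 39.9 CPM in hypoblast-like and 43.8 CPM in epiblast-like nuclei, the opposite order to that of the 3 histone classes. CENPA had 238 and 124 UMIs in trophectoderm-like nuclei, a ratio of 2.15 (1.73 to 2.70). Over whole libraries it had 642 and 394, a ratio of 1.49 (1.31 to 1.70), and between deep barcodes 341 and 383, a ratio of 1.36 (1.17 to 1.58). These genes were read from a list written with earlier results of these data known, and no test across replicates exists for them.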
